A study of Rattus norvegicus with 6 samples.

Results

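Transporters for amino acids and for the neurotransmitters made from them, most of the plasma membrane and some of lysosomes or vesicles, were followed in rat pancreatic islets between late fetal life and the weeks after birth. The members are the 58 genes, of 18625 named genes in the deposited table, whose symbols belong to the solute carrier families Slc1, Slc3, Slc6, Slc7, Slc36, Slc38 and Slc43. Slc38a4 was left out by the rule that chose them, and the rule selects by symbol alone. One member, Slc7a6os, is a gene on the strand opposite to Slc7a6 and matches by its symbol alone, since it encodes no transporter. RNA sequencing was done on freshly isolated islets at embryonic day 19 (E19, labelled fetal islet cells) and after birth (labelled neonatal islet cells), with 3 libraries in each group. By title the postnatal libraries are from 2-week-old rats, but the age recorded for them is postnatal week 2 for replicate 1, week 3 for replicate 2 and week 4 for replicate 3. The labels name no strain, sex, treatment or pooling and do not tie libraries to animals. The p-values therefore reflect only how far these libraries spread, and that spread may be technical.

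Amino acids cross cell membranes only through carriers, which differ in the substrates they accept and in the ions that drive them. Sodium-coupled carriers concentrate amino acids in the cell, exchangers trade one amino acid for another, and facilitators let them run down a gradient. In islets, amino acids stimulate the release of insulin and glucagon, glutamine supply is tied to the growth of glucagon cells, and beta cells make the neurotransmitter GABA. Exchangers of the Slc7 family are light chains that reach the cell surface only when joined to a heavy chain of the Slc3 family.

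Levels are given as scaled CPM, a CPM whose library size was adjusted between libraries. The factor on the library size was 0.677 for postnatal replicate 1 and 0.992 to 1.25 for the other libraries. The adjustment thus raised the values of postnatal replicate 1 most, and a highest value in that library can rest on it. The 6 libraries held 26051449 to 37819935 reads, and 3 reads were worth 0.0726 to 0.152 scaled CPM. Fold changes are differences of log2(scaled CPM + 1), postnatal minus E19, with the SE of the limma model. A gene was called at a Benjamini-Hochberg adjusted p under 0.05 over all 12926 genes that reached a value of 1 in at least 3 libraries. Values are not divided by transcript length, so levels are compared between libraries and not between genes.

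The composition of the libraries moved with age. Genes for 6 islet hormones took 0.214% to 0.612% of the reads at E19 and 4.06% to 11% after birth, and all 6 rose. Acinar markers, of which 16 of 17 were matched, took 5.96% to 8.03% at E19 and 18.6% to 37% after birth, with the highest share in postnatal replicate 1, and 12 of 16 rose. In postnatal replicates 1, 2 and 3, labelled weeks 2, 3 and 4, the acinar share was 37%, 20.8% and 18.6%. The hormone share was 4.06%, 6.45% and 11%. Labelled week and these shares therefore cannot be told apart where these libraries differ. Mesenchymal markers summed to 1747 to 2594 scaled CPM and then 6917 to 12264 (6 of 7 rose), and endothelial markers to 192 to 313 and 470 to 758 (7 of 7 rose). Schwann cell and glial markers summed to 15.9 to 19.7 and 31.3 to 64.8 (5 of 7 rose, 1 fell), and neuronal markers to 41.6 to 56.2 and 70.5 to 124 (3 of 4 tested rose). Macrophage and leukocyte markers summed to 48.9 to 125 and 114 to 369 (4 of 8 rose), and duct markers to 363 to 403 and 254 to 429 (2 of 6 fell). Erythroid markers fell in 10 of 10 cases, from sums of 3873 to 11885 to sums of 1182 to 1738, and proliferation markers in 6 of 6. The highest erythroid sum was in E19 replicate 2. Liver markers summed to 7403 in E19 replicate 2, against 219 to 498 in the other 5 libraries, and 1 of 7 tested rose and 3 fell. Beside these counts, 30% of all genes tested were called higher and 33.1% lower, and the 2 of 6 duct markers that fell are near that share. No matched marker of any of these lists was at 0 in all libraries. The part of these shifts in the changes described here was not tested, and in bulk islets fewer cells of a type and less RNA per cell cannot be told apart.

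The facilitators of the Slc43 family went opposite ways, and the largest fall among the tested members was that of Slc38a1. The bases before the annotated start of these genes and of Slc7a5, the light chain with the best known role in leucine uptake, are shown so that the motif matches described later can be read in place. Each is 250 bases long, from the RefSeq promoter table of the assembly GRCr8, 5′ to 3′ on the strand of the gene, and ends at the base before the start. Capitals mark an E-box (CACGTG) in Slc43a1 and Slc7a5 and the core of the amino acid response element (TGATGNAA) in Slc38a1. Slc43a1 lies on the plus strand at chr3:90327072-90327321, Slc43a2 on the plus strand at chr10:60874588-60874837, Slc38a1 on the minus strand at chr7:129681402-129681651 and Slc7a5 on the minus strand at chr19:66872413-66872662.
Slc43a1: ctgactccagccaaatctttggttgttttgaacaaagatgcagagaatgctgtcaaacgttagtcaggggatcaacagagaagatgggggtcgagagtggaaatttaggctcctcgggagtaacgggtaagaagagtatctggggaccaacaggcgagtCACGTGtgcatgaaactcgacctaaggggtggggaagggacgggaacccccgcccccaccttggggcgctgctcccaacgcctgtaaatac
Slc43a2: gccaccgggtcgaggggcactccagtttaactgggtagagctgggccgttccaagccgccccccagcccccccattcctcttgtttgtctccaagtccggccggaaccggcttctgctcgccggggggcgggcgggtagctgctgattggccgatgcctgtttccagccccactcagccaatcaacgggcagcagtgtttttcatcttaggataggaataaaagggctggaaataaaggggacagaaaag
Slc38a1: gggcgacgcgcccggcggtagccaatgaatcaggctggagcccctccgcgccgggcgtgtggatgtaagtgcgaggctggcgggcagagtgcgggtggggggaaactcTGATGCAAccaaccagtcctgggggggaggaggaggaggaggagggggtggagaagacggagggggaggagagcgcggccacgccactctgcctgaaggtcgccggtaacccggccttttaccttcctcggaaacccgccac
Slc7a5: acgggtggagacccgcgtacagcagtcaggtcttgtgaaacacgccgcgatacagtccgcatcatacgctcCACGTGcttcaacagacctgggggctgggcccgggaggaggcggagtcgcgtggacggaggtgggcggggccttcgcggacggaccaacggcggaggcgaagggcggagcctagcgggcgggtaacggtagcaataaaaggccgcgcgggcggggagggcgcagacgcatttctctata

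Of the 58 members, 37 reached the level needed for the test, and 18 of them were higher and 7 lower after birth, which is 67.6% of those tested beside 63.1% of all genes. Among all genes 30% were called higher and 33.1% lower. Changes of at least 2-fold numbered 12 upward and 5 downward, beside 14.8% and 12.1% of all genes, 26.9% together. The values of the groups did not overlap for 19 members that were higher and 7 that were lower, beside 33.1% and 36.9% of all genes, 70% together. The median log2 fold change of the 37 was 0.38, against -0.03 over all genes tested. Slc6a4, Slc6a11 and Slc7a3 reached the test only through the postnatal libraries, and such genes had to differ, so these counts describe the members and say nothing of the families as a whole. The balance of directions depended on the scaling: without any adjustment between libraries, 13 members were higher and 9 lower, 59.1% of calls upward instead of 72%, while the median of all genes moved by -0.33. With library sizes taken without the 20 highest genes, 23 were higher and 6 lower, and the median of all genes moved by 0.24. Upper quartile scaling moved that median by 0.11 and gave 20 higher and 7 lower.

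**Figure D1:**
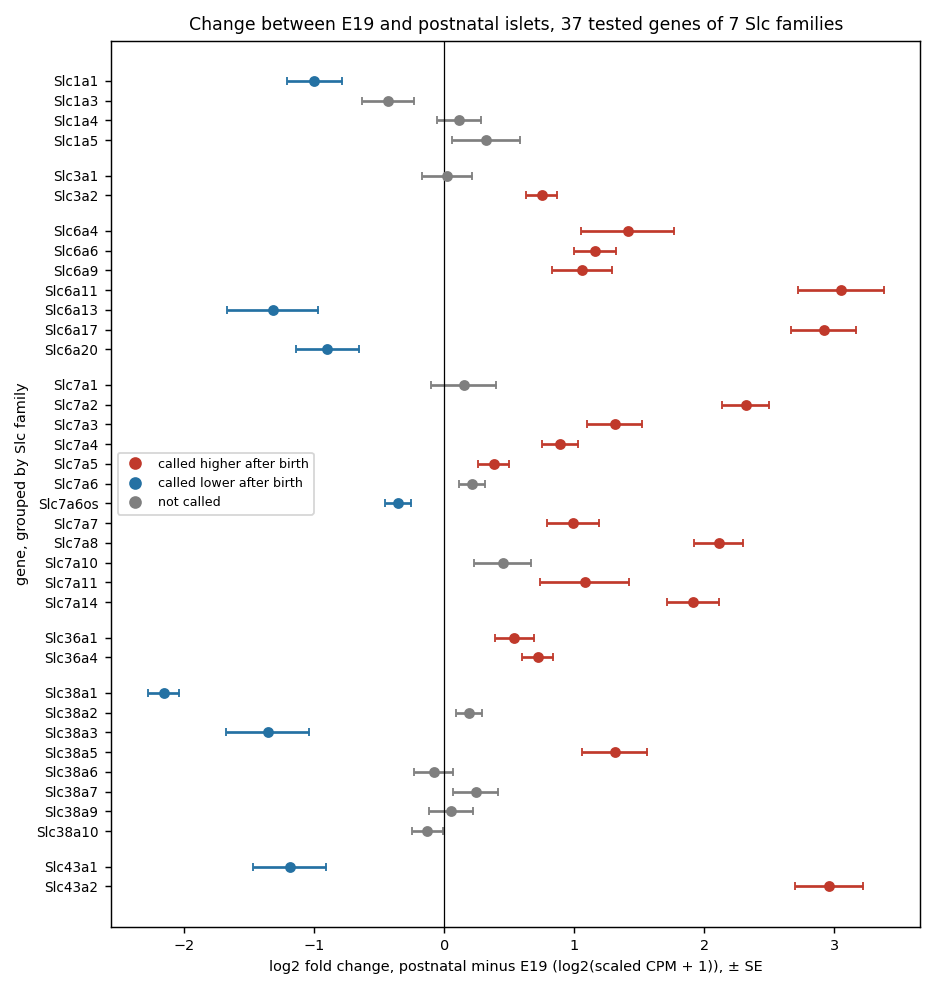
Log2 fold changes (x axis, postnatal minus E19, on log2(scaled CPM + 1), bars ± SE) of the 37 tested genes, listed by Slc family on the y axis and coloured by call. Slc6a11, Slc43a2 and Slc6a17 lie farthest to the right, at 3.05, 2.96 and 2.92, and Slc38a1 farthest to the left, at -2.16.

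Among the heavy chains, Slc3a2 (4F2hc), the partner of most light chains described here, rose. It stood at 109, 126 and 115 scaled CPM in E19 replicates 1, 2 and 3 and at 227, 185 and 182 in postnatal replicates 1, 2 and 3. Every postnatal library lay above every E19 library, and the log2 fold change was 0.75 ± 0.12 (adjusted p = 0.00108, limma). Without adjustment between libraries the call ended (0.40, adjusted p = 0.0573). Slc3a1 (rBAT), the heavy chain of the cystine carrier of kidney and gut, was not called, at 9.33, 10.2 and 8.42 against 7.85, 8.5 and 12.7. The groups overlapped for Slc3a1, with a log2 fold change of 0.02 ± 0.19 that turned to -0.29 without adjustment between libraries.

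The light chains for large neutral amino acids changed by unequal amounts. Slc7a8 (LAT2) was at 29.4, 30.3 and 28 scaled CPM at E19 and at 178, 120 and 101 after birth. Every postnatal library lay far above every E19 library, and Slc7a8 rose by 2.11 ± 0.19 on the log2 scale (adjusted p = 1.02e-04). Its highest postnatal value was in replicate 1, the library with an acinar share of 37% and a labelled week of 2. The log2 fold change was 1.88 without that library and 1.76 without adjustment between libraries. Slc7a5 (LAT1) stood at 77.7, 86.6 and 85.4 and at 122, 113 and 93.3. The groups did not overlap, and the call of 0.38 ± 0.12 (adjusted p = 0.0239) was a narrow one. It ended without adjustment between libraries (0.03, adjusted p = 0.882), with the replicate number as a block (0.38, adjusted p = 0.0547), and on leaving out any of the libraries other than postnatal replicate 3, with changes between 0.30 and 0.41.

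Both proteins take the same heavy chain, and ratios within a library do not depend on how libraries are scaled. Slc7a8 was 0.378, 0.35 and 0.327 of Slc7a5 at E19 and 1.46, 1.06 and 1.08 of it after birth, so the ratio of the means of these ratios was 3.41. Slc7a5 was 0.714 ± 0.0259 of Slc3a2 at E19 and 0.554 ± 0.0525 after birth (mean ± SD, n = 3). Slc7a8 was 0.251 ± 0.0162 of Slc3a2 and then 0.663 ± 0.118. These and the other pairs given below were chosen after the values were seen, the ratios are of signal and not of transcripts, and they carry no test.

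**Figure D2:**
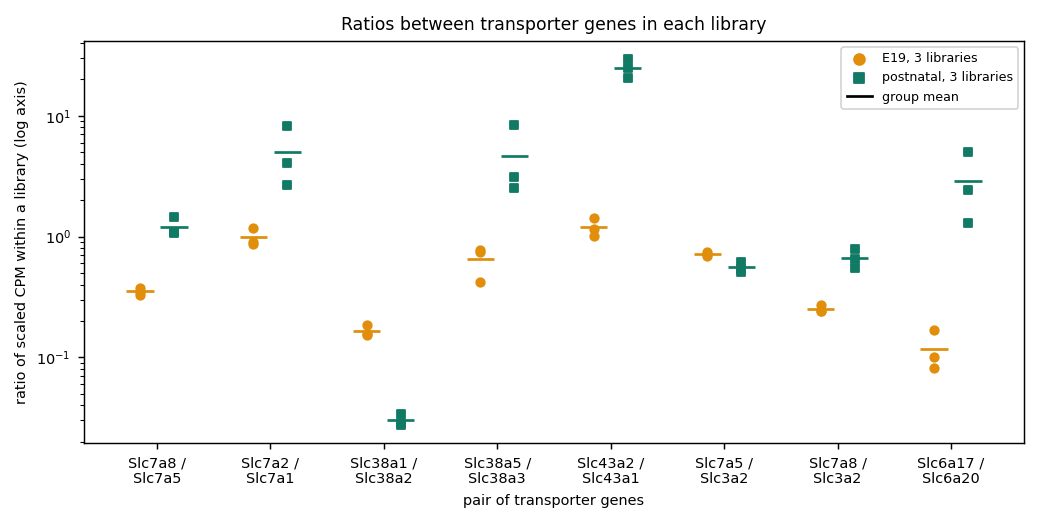
Ratio of the scaled CPM of pairs of genes within each library (y axis, log scale), with 3 E19 libraries (circles), 3 postnatal libraries (squares) and group means (lines). Of the 8 pairs plotted, Slc6a17 over Slc6a20, from a mean of 0.116 to one of 2.9, and Slc43a2 over Slc43a1, from 1.2 to 24.9, show the widest gaps, and Slc7a5 over Slc3a2 the narrowest, from 0.714 to 0.554.

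The other light chains moved upward where they were called. Slc7a11 (xCT), which brings in cystine for glutathione synthesis, stood at 6.82, 10.3 and 7.06 at E19 and at 23.4, 24.5 and 9.7 after birth. Postnatal replicate 3 lay within the E19 range, and the log2 fold change was 1.08 ± 0.34 (adjusted p = 0.0239). The call ended on leaving out E19 replicate 1 or 3 or postnatal replicate 1 or 2, with values of 0.98, 1.0, 0.89 and 0.86 and adjusted p between 0.057 and 0.0818. It ended too without adjustment between libraries (0.75, adjusted p = 0.0732). Slc7a7 (y+LAT1), an exchanger of cationic for neutral amino acids, rose from 9.89 ± 2 to 20.7 ± 4.94 (0.99 ± 0.20). Its near relative Slc7a6 (y+LAT2) was not called, at 28.9 ± 1.51 and 33.6 ± 2.48, although the groups did not overlap, and its change of 0.21 ± 0.10 turned to -0.13 without adjustment between libraries. Upper quartile scaling (0.32, adjusted p = 0.0292) and library sizes without the 20 highest genes (0.45, adjusted p = 0.021) called Slc7a6 higher. Slc7a10 (Asc-1), a carrier of small neutral amino acids that include D-serine, was not called either, at 2.62 ± 0.586 and 4.02 ± 1.29 (0.45 ± 0.22). In 4 of the 27 alternatives that tested Slc7a10 it was called higher. Among these were the fits without postnatal replicate 1 (0.64, adjusted p = 0.0272, limma) and with the labelled week as a covariate (0.45, adjusted p = 0.0436, limma). The opposite-strand gene Slc7a6os fell from 25 ± 1.08 to 19.3 ± 0.194 (-0.36 ± 0.10). That call was lost without the 20 highest genes in the library size (-0.13) and without E19 replicate 2 (-0.34, adjusted p = 0.058). With no strand setting of the counting given, reads of Slc7a6 and Slc7a6os may be mixed.

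Cationic amino acid transporters of the Slc7 family carry arginine, lysine and ornithine without a heavy chain. Slc7a2 (CAT2) stood at 54.3, 60.6 and 41.6 scaled CPM at E19 and at 219, 256 and 321 after birth. It rose by 2.32 ± 0.18 on the log2 scale (adjusted p = 5.55e-05), the largest rise among the Slc7 genes on this scale, and by 1.97 to 2.57 under all 28 alternatives. Slc7a1 (CAT1), the more widely expressed carrier, was not called, at 62.4, 51.4 and 46.4 against 82.3, 63 and 39.2. The Slc7a1 groups overlapped, with postnatal values spread widely and highest in replicate 1, whose values the adjustment between libraries raised most. The log2 change of 0.15 became -0.09 without that library and 0.44 without postnatal replicate 3 (adjusted p = 0.0683, limma). Without adjustment between libraries it was -0.20. Slc7a2 was 0.983 ± 0.172 of Slc7a1 at E19 and 4.97 ± 2.87 after birth. Slc7a3 (CAT3), a carrier best known from brain, rose from 0.21 ± 0.0842 to 2.05 ± 0.722 (1.31 ± 0.21, and 3.33 in DESeq2, since adding 1 shrinks the change of a low gene).

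A pair of related Slc7 proteins that are not established as plasma membrane carriers also rose. Slc7a14, a protein of lysosomes, stood at 2.12, 1.84 and 1.57 at E19 and at 7.9, 8.71 and 13 after birth. The groups lay far apart, and the log2 fold change was 1.91 ± 0.20 (adjusted p = 1.72e-04). Slc7a4 rose from 13.8 ± 2.02 to 26.3 ± 2.81 (0.89 ± 0.14). Of the 12 Slc7 genes tested, 8 rose, 1 fell (Slc7a6os) and 3 were not called, which is 75% called beside 63.1% of all genes. Slc7a3, one of the 8, reached the test only through the postnatal libraries.

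**Figure D3:**
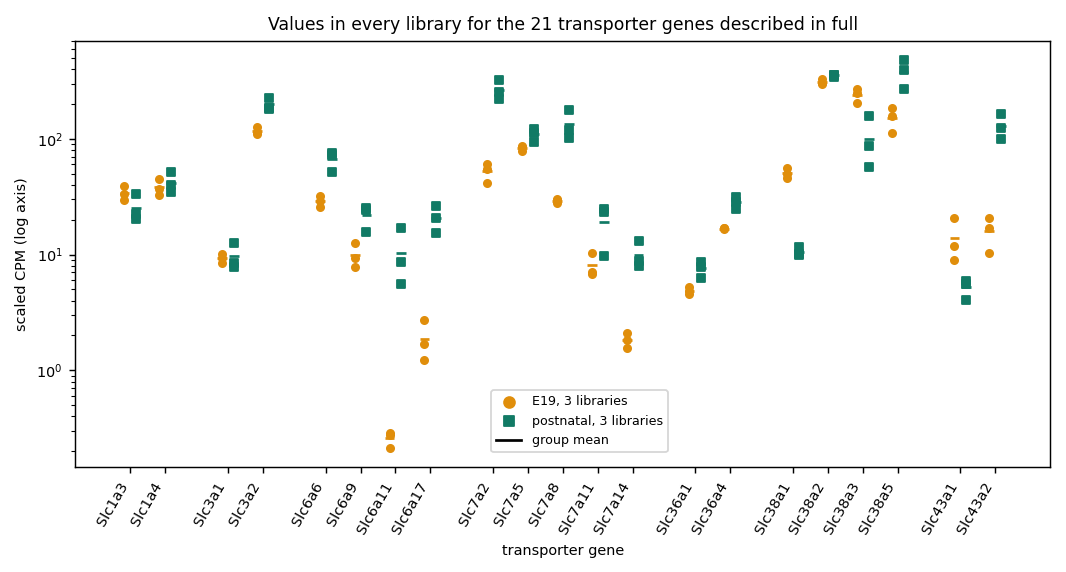
Scaled CPM (y axis, log scale) of 21 transporter genes (x axis, by family) in each of 3 E19 libraries (circles) and 3 postnatal libraries (squares), with group means as lines. Slc38a1 sits at 46.2 to 55.9 at E19 and 9.82 to 11.6 after birth, while Slc43a2 sits at 10.3 to 20.7 and then 99.9 to 164.

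The sodium-coupled neutral carriers of the Slc38 family split. Slc38a1 (SNAT1), which takes up glutamine and other small neutral amino acids, stood at 55.9, 46.2 and 49.8 scaled CPM at E19 and at 9.82, 11.6 and 10.2 after birth. Libraries within a group lay close together, and Slc38a1 fell by 2.16 ± 0.12 on the log2 scale (adjusted p = 2e-05), with values between -2.49 and -1.84 under all 28 alternatives. Slc38a2 (SNAT2), the related carrier that amino acid shortage is known to induce, stood at 304, 296 and 327 and at 358, 343 and 355. It was not called (0.19 ± 0.10, adjusted p = 0.14), though the groups did not overlap. It was called higher under upper quartile scaling, in DESeq2 and when the library size left out the 20 highest genes, and stood at -0.16 without adjustment between libraries. Slc38a1 was 0.164 ± 0.0171 of Slc38a2 at E19 and 0.03 ± 0.0034 after birth.

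The system N carriers, which move glutamine, asparagine and histidine in either direction, went opposite ways. Slc38a3 (SNAT3) stood at 203, 247 and 267 at E19 and at 157, 86.2 and 57.3 after birth. The postnatal libraries were spread, with the highest value in replicate 1, the library richest in acinar transcripts, and the log2 fold change was -1.36 ± 0.32 (adjusted p = 0.00736). Leaving out postnatal replicate 1 gave -1.74, and leaving out replicate 3 gave -1.02. Slc38a5 (SNAT5), a carrier that glucagon cells use when amino acids are in excess, stood at 158, 184 and 113 and at 393, 268 and 478. It rose by 1.31 ± 0.25 (adjusted p = 0.00247, limma). In the same libraries the islet hormone genes, glucagon among them, rose, as did most acinar, mesenchymal and endothelial markers. A link of Slc38a5 to any of these was not tested. Slc38a5 was 0.778, 0.743 and 0.424 of Slc38a3 at E19 and 2.51, 3.11 and 8.35 of it after birth.

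The other tested members of the Slc38 family, among them lysosomal proteins, were not called, and their directions changed with the scaling. Slc38a9, the lysosomal arginine sensor of the kinase complex mTORC1, stood at 7.62 ± 1.57 and 7.82 ± 0.768. Slc38a7, a lysosomal glutamine exporter, stood at 4.81 ± 0.499 and 5.92 ± 1.15, and Slc38a6 at 4.59 ± 0.452 and 4.31 ± 0.653. Slc38a10 was at 174 ± 18.4 and 158 ± 17.2. Of the alternatives run, only the one without adjustment between libraries called it lower (-0.48, adjusted p = 0.0275), and it stood at 0.11 without the 20 highest genes. Of the 8 Slc38 genes tested, 1 rose, 2 fell and 5 were not called, which is 37.5% called beside 63.1% of all genes.

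The Slc43 facilitators, which pass branched-chain and aromatic amino acids without sodium, changed in opposite directions. Slc43a2 (LAT4) stood at 16.9, 20.7 and 10.3 scaled CPM at E19 and at 99.9, 123 and 164 after birth. It rose by 2.96 ± 0.26 on the log2 scale (adjusted p = 8.85e-05). Slc43a1 (LAT3) stood at 11.8, 20.5 and 8.97 and at 4.05, 5.95 and 5.57. It fell, with a log2 fold change of -1.19 ± 0.28 (adjusted p = 0.0071, limma). Its highest value was in E19 replicate 2, the library richest in both liver and erythroid transcripts. Erythroid markers summed to 6072, 11885 and 3873 in E19 replicates 1, 2 and 3, and a link of Slc43a1 to these or to liver markers was not tested. Without E19 replicate 2 the log2 fold change was -0.88, and without that library and postnatal replicate 1 it was -0.74, still called. Slc43a2 was 1.43, 1.01 and 1.15 times Slc43a1 at E19 and 24.7, 20.6 and 29.5 times after birth.

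Both tested proton-coupled carriers of the Slc36 family, found in lysosomal and plasma membranes, rose, beside 30% of all genes called higher. Slc36a4 stood at 16.5, 16.8 and 16.9 at E19 and at 24.6, 28.7 and 31.6 after birth (0.72 ± 0.12, adjusted p = 0.00133). Slc36a1 stood at 5.22, 4.86 and 4.53 and at 8.66, 7.78 and 6.28 (0.54 ± 0.15, adjusted p = 0.0154). The groups did not overlap for either gene, but without adjustment between libraries neither was called (0.38 and 0.23). The Slc36a1 call was also lost without E19 replicate 3 (0.50) and without postnatal replicate 2 (0.52).

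Glutamate carriers and neutral exchangers of the Slc1 family were mostly not called. Slc1a3 (GLAST), a glutamate carrier known from glia, stood at 29.3, 33 and 39.2 scaled CPM at E19 and at 33.1, 22.3 and 20.1 after birth. The groups overlapped through postnatal replicate 1, and the change of -0.43 ± 0.20 was not called (adjusted p = 0.0855). It was called lower without that library (-0.64, adjusted p = 0.00578) and without adjustment between libraries (-0.78). With the labelled week as a covariate Slc1a3 was called lower too (-0.43, adjusted p = 0.0257, limma). Slc1a4 (ASCT1), an exchanger of serine, alanine and cysteine, stood at 32.8, 45.2 and 37 and at 51.4, 39.5 and 34.4, with overlapping groups and a log2 fold change of 0.11 ± 0.17 that turned to -0.23 without adjustment between libraries. Slc1a5 (ASCT2), a glutamine exchanger prominent in dividing cells, was not called, at 14.3 ± 4.11 and 18.2 ± 5.51. In the same libraries all 6 proliferation markers fell. Among the alternatives run, Slc1a5 was called higher (0.75, adjusted p = 0.00613) only when E19 replicate 2 and postnatal replicate 1 were both left out, and it stood at -0.01 without adjustment between libraries. Slc1a1 (EAAC1), the neuronal and epithelial glutamate carrier, fell from 3.18 ± 0.484 to 1.12 ± 0.494 (-1.0 ± 0.21). It was the only called gene of the 4 tested in this family, which is 25% called beside 63.1% of all genes.

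Neurotransmitter carriers of the Slc6 family included Slc6a11 and Slc6a17, which rose by about 3 on the log2(scaled CPM + 1) scale, a size that depends on the value added. Slc6a11 (GAT3), a GABA carrier known from astrocytes, stood at 0.215, 0.29 and 0.277 scaled CPM at E19, which is 7 to 12 reads, and at 16.9, 8.67 and 5.57 after birth. It rose by 3.05 ± 0.33 on the log2 scale (adjusted p = 2.08e-04). Adding 1 understates the change of so low a gene, while edgeR on the reads gave 5.32 and adding 5 gave 1.48. Its highest value was in postnatal replicate 1, the library with the largest acinar share, and the log2 fold change was 2.66 without it when the genes tested were held fixed. Slc6a13 (GAT2), the GABA and taurine carrier of liver and meninges, fell from 4.03 ± 2.24 to 0.937 ± 0.532 (-1.32 ± 0.35). Its highest value, 6.44, was in E19 replicate 2, the library with the liver transcripts, against 2 and 3.67 in E19 replicates 1 and 3. Without that library the change was -0.99 and was still called, and edgeR gave -2.09 with all libraries.

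Slc6a17 (NTT4), which loads neutral amino acids into synaptic vesicles, stood at 1.69, 2.71 and 1.23 at E19 and at 15.4, 20.5 and 26.4 after birth. It rose by 2.92 ± 0.25 (adjusted p = 7.62e-05, limma), or 1.89 with 5 added. Its lowest postnatal value was in replicate 1, the library with the smallest hormone share and the largest acinar share of its group. Slc6a6, the taurine carrier, stood at 32, 28.9 and 25.8 and at 51.8, 72.5 and 75.8 (1.16 ± 0.16, adjusted p = 5.82e-04). Slc6a9 (GlyT1), a glycine carrier, stood at 9.27, 12.6 and 7.77 and at 24.4, 25.2 and 15.6 (1.06 ± 0.23, adjusted p = 0.00461). For all 3 genes every postnatal library lay above every E19 library. Slc6a4, the serotonin carrier, rose from 0.551 ± 0.344 to 3.37 ± 1.82 (1.41 ± 0.36, and 2.63 in edgeR), with a postnatal value of 1.27 in replicate 1 and of 4.44 and 4.4 in replicates 2 and 3. Slc6a20, a carrier of proline and related imino acids, fell from 16.1 ± 0.748 to 8.53 ± 3.28 (-0.90 ± 0.24). Of the 7 Slc6 genes tested, 5 were called higher and 2 lower, beside 63.1% of all genes called in either direction. Slc6a4 and Slc6a11, both among the 5, reached the test only through the postnatal libraries.

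The remaining 21 members did not reach a value of 1 in 3 libraries, and 11 of them held at most 15 reads over the 6 libraries together. All 58 members had at least 1 read. When every gene with a read was tested, 7 of the 21 were called higher and 1 lower. The glutamate carrier Slc1a7 had 1, 9 and 6 reads at E19 and 19, 54 and 53 after birth. The cystine light chain Slc7a9 had 1, 6 and 2 reads and then 12, 20 and 29, and Slc38a11 had 2, 3 and 5 and then 14, 18 and 23. Slc38a8 was also called higher, at 0.45. Slc6a5, the neuronal glycine carrier, and Slc7a15 were among the 7, but with at most 5 reads in any library no change is read from them. Slc1a6, a glutamate carrier of cerebellum, was the 1 called lower, with 9, 19 and 8 reads against 0, 2 and 2, a postnatal group under 3 reads in every library. Slc36a2 had 62 reads in E19 replicate 2 and 1 and 2 in the other E19 libraries, and the betaine and GABA carrier Slc6a12 had 46 against 11 and 5. The noradrenaline carrier Slc6a2 and the dopamine carrier Slc6a3 had at most 5 reads in any library. Slc6a7, Slc6a14, Slc6a15, Slc6a16, Slc6a18, Slc6a19, Slc7a12, Slc7a13 and Slc36a3 were not called, with at most 19 reads in a library.

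Within groups, some libraries did not rank alike for the members and for all tested genes, and others did. E19 replicate 2 was the highest E19 library for 23 of the 37 tested members, 62.2%, and for 30.2% of all tested genes. Postnatal replicate 1 was the highest of its group for 16 members and the lowest for 15, so that few fell in between. For all tested genes the shares were 41% and 39.6%, close to the 43.2% and 40.5% of the members.

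**Figure D4:**
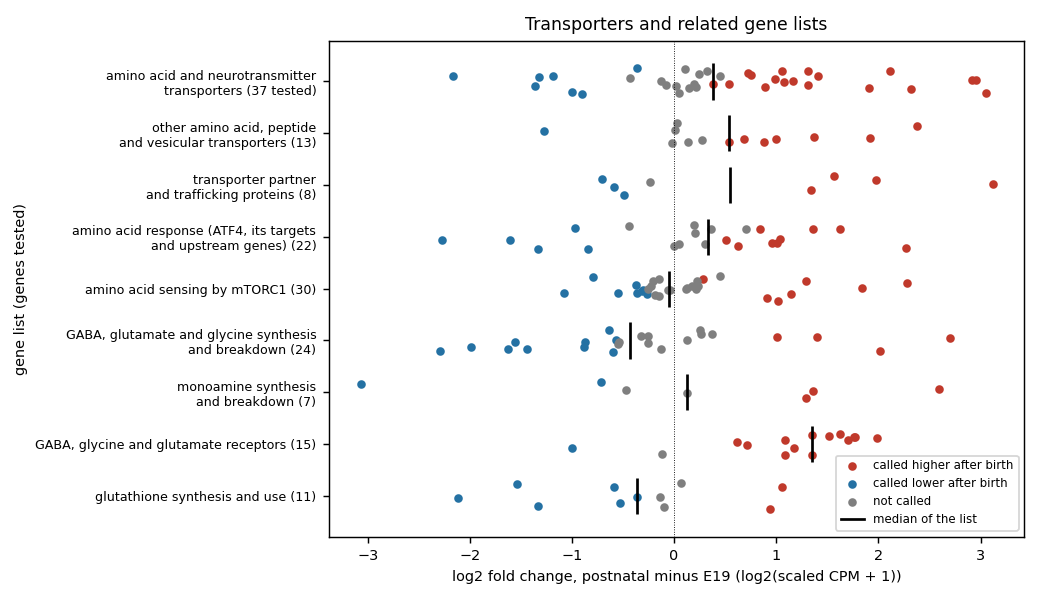
Log2 fold changes (x axis, postnatal minus E19) of the tested transporters and of the tested genes of 8 related lists (y axis), coloured by call, with the median of each list as a line. GABA, glycine and glutamate receptors have the highest median, 1.35, and the genes for making and breaking down GABA, glutamate and glycine the lowest, -0.43.

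Transporters outside these families and proteins that work with them were read from the same fit. Among other amino acid, peptide and vesicular transporters 7 of 13 tested rose and 1 fell, which is 61.5% called. Slc18a1 and Slc22a3, among the 7, reached the test only through the postnatal libraries, and Slc15a1, the 1 that fell, only through the E19 libraries. Such genes had to differ. Over all genes 63.1% were called, 30% higher and 33.1% lower. Slc16a10 (TAT1), a facilitator of aromatic amino acids, rose from 9.94 ± 3.3 to 55.2 ± 15.8 (2.38 ± 0.28), and Slc29a4, a low-affinity monoamine carrier, from 7.1 ± 2.21 to 29.1 ± 5.6 (1.92 ± 0.24). Of the vesicular monoamine carriers, Slc18a2 was not called, at 6.68 ± 0.225 and 6.84 ± 0.636, while Slc18a1 rose from 0.716 ± 0.199 to 2.18 ± 0.683 (0.88 ± 0.20). The vesicular GABA carrier Slc32a1 had a single read in the whole set. Of 8 partner and trafficking proteins, 4 rose and 3 fell, which is 87.5% called. Cltrn (collectrin), the partner of Slc6a18 and Slc6a19, whose own genes had at most 4 reads in a library, stood at 23.9, 28.4 and 21.1 and at 183, 184 and 312 (3.12 ± 0.22). Cd44, which stabilises xCT, rose by 1.98 ± 0.29.

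Enzymes and receptors of the same substrates did not move as one. Of 24 genes for making and breaking down GABA, glutamate, glycine and related amino acids, 4 rose and 10 fell. That is 58.3% called beside 63.1% of all genes. The GABA-forming enzyme genes Gad2 and Gad1 rose by 2.70 ± 0.30 and 2.02 ± 0.26, and Abat, which breaks GABA down, by 1.40 ± 0.24. The serine and glycine genes Shmt1, Gcsh and Amt fell, with log2 fold changes of -2.29, -1.99 and -1.56. Among 15 tested receptor genes for GABA, glycine and glutamate 13 rose and 1 fell, beside 30% and 33.1% of all genes. Another 21 of the 36 matched receptor genes were too low to test, and several of the 13, Grik3 and Gabrd among them, reached the test only through the postnatal libraries. Of those whose postnatal mean reached 5, the glutamate receptor gene Gria4 (1.99 ± 0.24) and the GABA receptor gene Gabbr2 (1.76 ± 0.29) rose most. Of 7 monoamine genes, 3 rose and 2 fell, which is 71.4% called. Dbh, among the 3, reached the test only through the postnatal libraries. Maob, which oxidises monoamines, rose by 2.59 ± 0.33, and the histamine-forming Hdc, with 301 in E19 replicate 2 against 38.3 and 61.6, had a log2 fold change of -3.07 ± 0.77. Tph1, which starts serotonin synthesis, was not called, at 2.01 ± 0.32 and 2.61 ± 1.7.

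Genes of the response to amino acid supply were split. Of 22 tested genes of the amino acid response, which are Atf4, the upstream genes Eif2ak4 and Gcn1, and targets of the transcription factor ATF4, 9 rose and 5 fell, Gcn1 among those that fell (-0.84). That is 63.6% called, close to the 63.1% of all genes. Chac1, among the 9 that rose, reached the test only through the postnatal libraries. Vldlr rose by 2.27 ± 0.21 and the asparagine synthetase gene Asns by 0.96 ± 0.21. The serine synthesis genes Psat1 and Phgdh fell, with log2 fold changes of -2.27 and -1.61. Atf4 itself was at 295 ± 5.25 and 308 ± 37.1 and was not called. Of 30 genes of amino acid sensing by mTORC1, which include its subunits Mtor, Rptor and Mlst8 and the downstream factor Tfeb, 7 rose and 8 fell. That is 50% called, under the share of all genes. Tfeb rose (1.29) and Mtor fell (-0.30). Among the upstream genes there were rises of 2.28 ± 0.19 for the GTPase gene Rragd and 1.84 ± 0.23 for Castor1, a sensor of arginine. Beside the cystine carrier Slc7a11, 2 of 11 glutathione genes rose and 6 fell, which is 72.7% called. The glutathione synthetase gene Gss fell from 40.4 ± 4.23 to 15.4 ± 1.15, and Gpx1 and Gsr, which use and restore glutathione, had log2 fold changes of -2.12 and -1.54.

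Promoter letters were searched on both strands in the 250 bases before the start. Of the 58 members, 44 had an entry in the RefSeq table, 2 of them with more than one start. The amino acid response element core TGATGNAA was present in 3 of the 44 (6.82%), beside 3.4% of all 33469 promoters. In the sequence of Slc38a1 shown above, the gene with the largest fall, it begins 142 bases before the start, and it was also found in Slc7a1 and Slc1a4, neither of which was called. The E-box CACGTG was present in 7 members (15.9%), beside 5.59% of all promoters. In the sequences shown it begins 91 bases before the start of Slc43a1, which fell, and 179 bases before that of Slc7a5, which rose. Of the other members with an E-box, Slc36a1 and Slc7a14 rose, Slc1a4 and Slc38a7 were not called, and Slc1a6 was not in the main test. The antioxidant response element core TGACNNNGC was present in 9 members (20.5%), beside 10.1% of all promoters, and none of these motif shares was tested. Of these Slc3a2, Slc6a6, Slc6a11, Slc7a7 and Slc36a1 rose, Slc3a1, Slc7a1 and Slc38a2 were not called, and Slc38a8 was not in the main test. No match overlapped another in the 4 sequences shown. A match describes these letters and not a bound site, and promoters with one of these motifs belonged to members that rose, fell and were not called.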

How the data were processed

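Total RNA of freshly isolated rat islets was depleted of ribosomal RNA and made into stranded libraries, per the labels' protocols. TopHat2 2.0.8b and edgeR 3.30.3 are named without a role, per the submitters' processing notes. Not given in the sources used here are the genome build, annotation, read counter and strand setting. The authors deposited 1 table with a normalized signal per gene. All of its values (100%) are whole reads times 1 constant per library within a tolerance of 0.001 reads, so reads were recovered and the signal is called scaled CPM. The row without a gene name held at most 9 reads in a library and was left out of the tests.

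The log2(value + 1) values of the 12926 genes that reached 1 in 3 or more libraries entered a limma 3.58.1 model (R 4.3.3) with group as its single term and a mean-variance trend. Tests were two-sided, with Benjamini-Hochberg adjustment. The design assumed normalized values. Alternatives were count tests of the recovered reads (edgeR 4.0.16, DESeq2 1.42.0), other pseudocounts, filters and scalings, a replicate block, the labelled week as a covariate and left-out libraries. No library was a duplicate of another: between libraries of a group, chi-square divided by its degrees of freedom was 49.9 to 411.

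The members, gene lists and alternatives were chosen with earlier results of these data known. Values in every library are given for members called with a change of at least 2-fold and a mean of at least 5, and for the 2 highest means of each family; from each related list the 2 largest called changes with a mean of at least 5 are named, with enzymes, partners and vesicular counterparts of named transporters. Of 184 entries of the related lists 162 were matched, 1 through an older symbol; other entries are not analysed here. Counts include a few genes whose own values are not reported here.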

Additional observations from a re-analysis of the deposited data

How the results depend on the processing

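Of the 25 called members, 19 kept their call and direction under each of the 28 alternatives that tested them; 6 lost the call in some alternative, 6 uncalled members gained one, and no called member changed sign. Members called higher numbered 12 to 17 and lower 6 to 8 on leaving out 1 library (12 without postnatal replicate 2), and 15 to 18 and 6 to 8 when the genes tested were held fixed, an alternative chosen after seeing the data. Over all genes, 1780 were higher without adjustment between libraries, against 3874, and 5088 lower, against 4278; leaving out 1 library gave 2863 to 3600 higher and 3518 to 4454 lower. The share of calls that were higher was 47.5% over all genes, and 25.9% without adjustment and 61.5% with library sizes that left out the 20 highest genes. With the replicate block 17 members were higher and 7 lower, and 3563 and 3863 of all genes. With the labelled week as a covariate 19 members were higher and 8 lower, and 4049 and 4467 of all genes. Deviations of same-numbered libraries from their group means had correlations of -0.207, 0.102 and -0.253, within the -0.361 to 0.431 of unlike-numbered libraries. These values give no sign that the numbers pair the libraries. They cannot exclude pairing, since the libraries also differ in composition. edgeR called 18 members higher and 7 lower, and DESeq2 19 and 7. Depth limits the members of a few reads, since 3 reads are worth 0.0726 to 0.152 scaled CPM.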
